A study of Mus musculus with 10 samples.

Results

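The pachytene comparison of Ago4 genotypes sets 1 mRNA library of Ago4+/+ cells against 1 mRNA library of Ago4-/- cells, both from pachytene spermatocytes of C57BL/6 mice aged 70 days. The animals were littermates. The sources used here do not say how many animals gave each library, how the cells were isolated or which part of Ago4 the mutant allele lacks. The authors' table has 36806 rows, 1 for each gene, and gives for each of 2 conditions a level in FPKM, fragments scaled by transcript length and library size. A gene was kept if its test has the status OK and its level reached 1 FPKM in either condition. This kept 16088 of the 36806 genes, called members here. The table numbers its conditions and does not name their genotypes. Differences are therefore given as second over first condition, and no genotype is attached to either.

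AGO4 is an Argonaute, a protein of the family that holds a small RNA and uses it to find matching transcripts. Pachytene is the stage of the first meiotic prophase at which homologous chromosomes are fully joined by the synaptonemal complex and crossovers mature. In males the X and Y chromosomes, which pair over a short stretch, are then packed into the sex body and transcriptionally silenced, a process called meiotic sex chromosome inactivation. Autosomal copies of several X-linked housekeeping genes are known to take over their functions in these cells. The series is about the entry into meiosis and the silencing of the sex chromosomes in the absence of AGO4, by its title.

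The table carries Ago4 as Eif2c4 (ENSMUSG00000042500), in a locus on chromosome 4 from 126166785 to 126210716 that is shared by 3 rows. Coordinates are those of the table, whose genome build the sources do not name. Its level was 4.37 FPKM in the first condition and 12.1 FPKM in the second. The log2 ratio, taken throughout as log2 of the second over the first level after adding 0.1 FPKM to each, was 1.45 with an implied error of 0.29. The implied error is the size of the log2 ratio divided by the size of the authors' test statistic, so it stands for counting and modelling in these libraries and not for animals. The transcript was thus present in both libraries and higher in the second. Since the deleted part is unknown, this level was not used to assign a genotype. The other Argonautes were lower and nearer to equal. Eif2c3 (Ago3) was at 3.16 and 3.18 FPKM, Eif2c2 (Ago2) at 2.42 and 1.92 FPKM, and Eif2c1 (Ago1) at 1.39 and 1.02 FPKM. In the authors' deposited table the q-value of Ago4 was 1.47e-04, and none of the other 3 Argonautes passed 0.05.

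The libraries carried the transcripts that mark pachytene cells, at close to equal levels. Ldhc, the lactate dehydrogenase of the male germ line, was at 5421 FPKM in the first condition and 5408 FPKM in the second. Ybx2, a germ cell RNA-binding protein, was at 2336 and 2345 FPKM, and Hspa2, a chaperone of meiotic cells, at 819 and 783 FPKM. Of the 14 pachytene markers, 13 had a log2 ratio between -0.19 and 0.13. The exception was the testis histone Hist1h1t, at 4.84 and 2.21 FPKM. The 14 markers summed to 14644 and 14952 FPKM here and to 13447 and 13220 FPKM in the leptotene/zygotene table. Ldhc was at 4507 and 4116 FPKM there. The sum of these markers thus does not set the pachytene libraries apart from that table. Single markers such as Piwil1, at 202 and 215 FPKM here and 37.2 and 24.8 FPKM there, did differ. Transcripts of haploid spermatids were abundant too. Prm1 and Prm2, the protamines that replace histones in sperm, were at 1074 and 1989 FPKM in the first condition and at 1712 and 2950 FPKM in the second. Tnp1, a transition protein, was at 2258 and 2712 FPKM. The leptotene/zygotene table, which was normalized separately, listed Tnp1 at 15006 and 17166 FPKM, and the day 3 table at 1.42 and 0.61 FPKM. Spermatid transcripts were thus present beside the pachytene markers in both conditions, and their part in the differences was not tested.

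Most genes had nearly the same level in both conditions. The median of all 16088 members was 10.19 FPKM in the first condition and 10.02 FPKM in the second, and the median log2 ratio was 0.03. A share of 72.0% of members lay within 0.5 log2 units of 0. Across members the log2 levels of the conditions had a Pearson correlation of 0.92, a description across genes, which are not replicates. With 1 library a side no difference has a replicate error, and the depth of the libraries is unknown. The authors' tests compare 2 libraries, not 2 genotypes.

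At least 2-fold higher levels in the second condition were found for 720 members (4.48%), and at least 2-fold lower levels for 977 members (6.07%). The spread depended on the level. Among 3070 members with a geometric mean under 2 FPKM, 34.6% differed at least 2-fold, against 1.42% of the 3158 members in the second highest of 5 level classes, which starts at 32 FPKM. The authors' q-value was at most 0.05 for 130 members that were higher in the second condition (0.808%) and for 220 members that were lower (1.37%). These genes are named called higher and called lower, and the q-values are the authors' own. In the class under 2 FPKM 36 members were called higher and 20 lower, and in the class from 32 FPKM 18 were called higher and 66 lower. Calls at low levels were thus mostly higher and calls at high levels mostly lower.

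**Figure D1:**
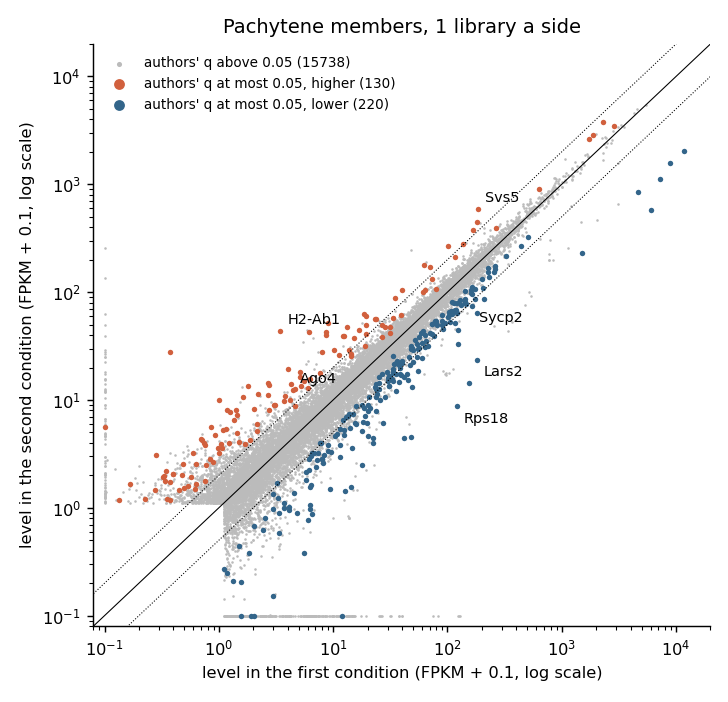
Level in the second condition against level in the first condition for the 16088 members, both in FPKM + 0.1 on log scales, with 1 library a side; the solid line marks equal levels and the dotted lines 2-fold differences. Most points lie along the line of equal levels, while Ago4, H2-Ab1 and Svs5 lie above it and Rps18, Lars2 and Sycp2 below it.

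The most abundant rows were of several kinds. By geometric mean the first 10 rows included Ldhc, Cmtm2a at 4563 and 5031 FPKM, Meig1 at 3323 and 3549.8 FPKM, Odf2 of the sperm tail's outer dense fibres at 3481 and 3414 FPKM, Tcp1 of the chaperonin ring at 2799 and 3140.2 FPKM, and Gstm5, a glutathione transferase, at 2889 and 3487 FPKM. Gstm5 was called higher with a log2 ratio of 0.27 and an implied error of 0.08. The same 10 rows held 2 short rows with clone names, AC147020.1 and AC124346.1, which fell from 11688 to 2018 FPKM and from 8931 to 1575 FPKM. The 46 members with such AC or AL names had a median log2 ratio of -2.67, and 36 of them were at least 2-fold lower. Small RNA names gave 235 members with a median of -4.31, of which 163 were at least 2-fold lower and 34 at least 2-fold higher. The clone names held 5.06% of the summed FPKM in the first condition and 0.99% in the second, and the small RNA names 2.59% and 0.89%.

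Those short rows included the 7SK RNA, which holds back the elongation factor P-TEFb. A 7SK row on chromosome 9 stood at 155 FPKM in the first condition and 14.3 FPKM in the second, and rows on chromosomes 2 and 15 fell from 47.5 to 4.47 FPKM and from 41.9 to 4.33 FPKM. In the leptotene/zygotene table the chromosome 9 row was at 150.4 and 113 FPKM. Of all members 143 were at 5 FPKM or more in 1 condition and listed at 0 in the other, 112 of them at 0 in the second, with 1 called higher and 1 called lower. Without predicted and clone names these were 106, of which 104 had small RNA names, and none of the 106 was called. The called rows were 9530002B09Rik, listed at 0 and at 5.51 FPKM, and Gm16212, at 11.9 FPKM and listed at 0, both chosen after their values were seen. The X-linked row Mir2137 was listed at 74.3 FPKM and at 0. Without both classes, an alternative chosen after seeing the data, 678 members were at least 2-fold higher and 778 at least 2-fold lower, and 130 were called higher and 210 lower.

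Leaving out predicted (Gm and Rik) and clone names, the widest differences among called genes were of mixed kinds. H2-Ab1, the beta chain of an MHC class II molecule that presents peptides to T cells, was at 3.35 FPKM in the first condition and 43.5 FPKM in the second, a log2 ratio of 3.66 with an implied error of 0.38. Rps18, a protein of the small ribosomal subunit, was at 121 and 8.64 FPKM, a log2 ratio of -3.79 with an implied error of 0.47. Rpl29, of the large subunit, was at 6.101 and 42.3 FPKM. Each of these 3 differed by more, on the log2 scale, than Ago4. Gm10260, whose current symbol Rps18-ps3 names it a pseudogene copy of Rps18, was called the other way at 136 and 279 FPKM, and at 119 and 281 FPKM in the leptotene/zygotene table. It was chosen after its values were seen, and since reads can be shared between a gene and its copy, the level of Rps18 is uncertain.

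The other named genes at the upper end were low or absent in the first condition. B3gnt2, a sugar transferase, was at 0.07 and 1.58 FPKM, and Trhde, a peptidase that breaks down thyrotropin-releasing hormone, at 0.04 and 1.07 FPKM. Rdm1, a DNA repair protein, was at 1.703 and 13.4 FPKM, and Ifitm3, an interferon-induced membrane protein, at 1.08 and 8.04 FPKM. Ppm1l, a phosphatase, was at 0.75 and 5.52 FPKM, and Cdca7l at 1.52 and 10.5 FPKM. At the lower end stood Htr5b, a serotonin receptor, at 2.896 and 0.05 FPKM, Hal, the histidine ammonia-lyase, at 5.52 and 0.28 FPKM, and Agr3 at 1.93 FPKM and listed at 0. The 3 rows of 7SK and mmu-mir-689-2, at 6062 and 577 FPKM, completed the 8 lowest without predicted or clone names. Predicted rows lay beyond them on both sides, with Gm17669 at 0.27 and 27.8 FPKM and Gm16212 as given above, chosen after their values were seen.

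Immediate early genes were mostly higher in the second condition by count. They encode transcription factors and feedback regulators that switch on soon after a stimulus, without new protein synthesis. Of 22 members on the list, 15 were at least 2-fold higher in the second condition, against 4.48% of all members, and 1 was at least 2-fold lower, and the median log2 ratio was 1.32 against 0.03 for all members. The authors called 9 of them higher, against 0.808% of all members, and none lower. Of the 15, 13 had also reached 1 FPKM in the first condition. Their summed level was 148 FPKM in the first condition and 293 FPKM in the second.

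Among the activators, Fos, the partner of JUN in the AP-1 factor, was at 8.57 FPKM in the first condition and 39.6 FPKM in the second, a log2 ratio of 2.20 with an implied error of 0.29. Atf3, a stress-induced relative, was at 3.95 and 19.3 FPKM, and Junb at 3.73 and 10.8 FPKM. All 3 were called higher. Egr1, a zinc finger factor, was called higher at 6.13 and 15.6 FPKM, while Jun itself, at 7.56 and 13.6 FPKM, and Fosb, at 2.14 and 5.397 FPKM, were higher without a call. Egr3 went the other way, at 3.63 and 1.38 FPKM, without a call.

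Other called members of the list act on messenger RNA, signalling and growth. Zfp36, which binds and destabilises messenger RNAs with AU-rich tails, was at 8.59 and 42.3 FPKM, a log2 ratio of 2.29 with an implied error of 0.33. Socs3, an inhibitor of cytokine signalling, was at 2.09 and 11.3 FPKM, Ier3 at 2.66 and 13.7 FPKM, and Btg2, an antiproliferative factor, at 2.602 and 10.9 FPKM. All 4 were called higher, as was Rhob, a small GTPase, at 5.16 and 13.3 FPKM. The phosphatase gene Dusp1 was at 3.22 and 7.85 FPKM without a call. Not every member followed: Klf4, a zinc finger factor of spermatids, was the most abundant of the list in the first condition at 50.8 FPKM and was at 33.5 FPKM in the second, Nr4a1 was at 11.2 and 11.9 FPKM, and Klf2 at 5.896 and 5.48 FPKM.

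Promoters of 19 of the 22 members were found in the RefSeq table for GRCm38.p6, and Egr1, Egr3 and Ier2 were not. The 250 bases before the start site are given for Btg2, Dusp1 and Zfp36, which hold the whole cyclic AMP response element or the CArG box, elements through which such genes are known to be induced, and for Fos, which was called. Dusp1 was not called. The sequences are Fos at chr12:85473640-85473889 on the plus strand, Btg2 at chr1:134079156-134079405, Dusp1 at chr17:26508473-26508722 and Zfp36 at chr7:28379229-28379478, the last 3 on the minus strand. Capitals mark TGACG, the whole element TGACGTCA that contains it, and in Zfp36 the CArG box.
Fos: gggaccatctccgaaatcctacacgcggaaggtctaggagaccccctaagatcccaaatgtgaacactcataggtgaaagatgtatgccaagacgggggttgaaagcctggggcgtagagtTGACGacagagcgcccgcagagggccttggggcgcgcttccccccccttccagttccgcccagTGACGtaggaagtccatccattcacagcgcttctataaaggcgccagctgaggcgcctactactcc
Btg2: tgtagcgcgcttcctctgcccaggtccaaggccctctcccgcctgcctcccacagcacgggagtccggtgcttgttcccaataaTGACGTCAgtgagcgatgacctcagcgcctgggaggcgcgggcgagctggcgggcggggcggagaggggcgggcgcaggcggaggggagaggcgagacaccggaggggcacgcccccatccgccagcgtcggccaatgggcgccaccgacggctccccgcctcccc
Dusp1: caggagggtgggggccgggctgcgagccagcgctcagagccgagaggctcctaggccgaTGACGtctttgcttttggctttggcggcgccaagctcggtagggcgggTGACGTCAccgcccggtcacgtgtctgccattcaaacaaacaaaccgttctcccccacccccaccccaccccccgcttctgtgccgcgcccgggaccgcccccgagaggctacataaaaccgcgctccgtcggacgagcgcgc
Zfp36: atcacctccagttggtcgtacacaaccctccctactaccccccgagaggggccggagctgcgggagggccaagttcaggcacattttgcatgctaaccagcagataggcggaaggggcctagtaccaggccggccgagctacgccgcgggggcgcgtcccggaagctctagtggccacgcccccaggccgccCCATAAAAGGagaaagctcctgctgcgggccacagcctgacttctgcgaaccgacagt

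On either strand of these 250 bases, TGACGTCA was found in 2 of the 19 promoters, Btg2 at 166 bases and Dusp1 at 143 bases before the start, against 439 of all 27025 promoters of the same length (1.62%). TGACG was found in 10 of the 19 and in 17.9% of all promoters. The 10 include Nr4a1 with 4 matches, Klf2 and Klf4, whose levels were near equal or lower in the second condition, and Fos holds it at 129 and 66 bases before the start. The CArG box was found in 1 of the 19, Zfp36 at 58 bases before the start, and in 1.40% of all. The AP-1 site TGANTCA was in none of the 19 and in 6.87% of all promoters. A match is a run of letters and not a measured site. Bases farther from the start were not searched, so a promoter without a match here may hold the element elsewhere.

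The heat shock list lay near 0 by its median. Its 15 members had a median log2 ratio of 0.11, and the abundant chaperones of germ cells were close to equal, with Hsp90aa1 at 2277 and 1947 FPKM and Hspa4l at 834 and 748 FPKM. The 3 called members were all higher and at low levels, against 0.808% of all members called higher. At least 2-fold higher were 3 of the 15, against 4.48% of all members. Other chaperones of the list were not called, among them Hspd1 at 6.43 and 8.48 FPKM, Hspe1 at 4.36 and 3.33 FPKM and Dnajb1 at 225 and 241 FPKM. Hspa1a and Hspa1b, the near-identical inducible HSP70 genes whose reads can be shared, were at 2.66 and 7.96 FPKM and at 2.97 and 8.84 FPKM, and Hspb1 was at 4.06 and 9.93 FPKM. Targets of p53 gave no called member among 11, against 2.18% of all members, and Cdkn1a, the cell cycle inhibitor, was at 2.07 and 2.42 FPKM.

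Markers of vessels and connective tissue were mostly low in both libraries, and several were higher in the second condition. Of the 11 endothelial markers 8 were members, and 6 of the 8 reached 1 FPKM in the second condition alone, so the floor itself favours higher members. Over all 11, floor or not, the median log2 ratio was 1.36, and all 11 were above 0. Tek, at 0.85 and 0.92 FPKM, and Flt1, at 0.78 and 0.87 FPKM, were near equal and not members. The 2 called members, against 0.808% of all members called higher, were Pecam1 and Kdr. Pecam1, an adhesion protein of endothelium, was at 0.66 and 3.696 FPKM, Kdr, the receptor for vascular endothelial growth factor, at 0.25 and 1.09 FPKM, and Cdh5, the endothelial cadherin, at 0.94 and 2.51 FPKM without a call. Summed over all 11 endothelial markers of the list the level was 9.34 and 22.8 FPKM, against 11.6 and 25.1 FPKM in the leptotene/zygotene table and 228 and 217 FPKM in the day 3 table, and none of the 11 was at 0 in both conditions. In a bulk library, fewer cells of a type and less RNA per cell cannot be told apart.

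Markers of the other supporting tissues were also higher in part. Of 13 stroma markers 11 were members, 6 of them through the second condition alone, and over all 13 the median log2 ratio was 1.21. The 2 called members, against 0.808% of all members called higher, were Col1a2 at 0.66 and 1.68 FPKM and Col4a2 at 0.74 and 2.75 FPKM. The list's sum was 50.3 and 80.9 FPKM against 9009 and 6899 FPKM at day 3. Of 9 myoid members, 3 were called higher, against 0.808% of all members. They were Acta2, smooth muscle actin, at 4.52 and 12.7 FPKM, Des, desmin, at 0.53 and 2.46 FPKM, and Myh11, smooth muscle myosin, at 1.601 and 3.84 FPKM. The myoid sum was 169 and 175 FPKM, most of it Actg2, at 125 and 98.9 FPKM. Haemoglobin transcripts were at a few FPKM, with Hba-a1 at 1.12 and 4.59 FPKM and none called. Their sum over 7 red cell markers was 6.60 and 17.2 FPKM, against 39.8 and 337 FPKM in the leptotene/zygotene table. None of the endothelial, stroma, myoid and red cell lists had a called lower member. Since only 1.37% of all members were called lower, this does not set such short lists apart. The part of such cells in the other differences was not tested.

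Of the Sertoli and Leydig cell markers 1 was called. The 12 Sertoli members had a median of 0.49, and 11 of them were above 0. The 1 called higher, against 0.808% of all members, was the cytoskeletal gene Vim at 14.98 and 37.1 FPKM, which many other cell types express as well. Clu, the most abundant of the list, was at 89.1 and 96.8 FPKM, and Wt1 at 4.91 and 6.96 FPKM. The 7 Leydig members, among them the hormone gene Insl3 at 29.5 and 26.03 FPKM and the steroid enzyme gene Cyp11a1 at 2.67 and 1.23 FPKM, had no call. Of the 13 spermatogonial members none was called, with Id4 at 20.8 and 26.6 FPKM and Uchl1 at 10.6 and 14.6 FPKM. Since only 2.18% of all members were called, lists this short can lack a call without differing from other genes.

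Some macrophage and interferon genes were called. Of 14 macrophage markers 6 were members, all 6 with a log2 ratio above 0 and 2 of them through the second condition alone, and over all 14 the median was 0.20. H2-Ab1 was the 1 member called higher, against 0.808% of all members. Outside the list the class II gene H2-DMb2 was also called higher, at 0.61 and 4.12 FPKM, chosen after its values were seen. Class II genes of the list without a call were low, with H2-Eb1 at 0.52 and 1.78 FPKM, Cd74, the class II invariant chain, at 1.97 and 2.71 FPKM, and H2-Aa, which lies in the same locus as H2-Ab1 (chromosome 17, 34400185 to 34424716), at 0.57 and 0.62 FPKM. The defining marker Csf1r was at 0.396 and 0.19 FPKM. H2-Ab1 was thus higher while H2-Aa, the gene of its partner chain, was under 1 FPKM in both conditions. Of 8 interferon members 7 had a log2 ratio above 0, and 4 were at least 2-fold higher, against 4.48% of all members. The authors called 3 higher, against 0.808% of all members, and 1 lower, against 1.37%. Over all 19 genes of the list, floor or not, the median was 0.99 and 15 were above 0. B2m, the light chain of MHC class I, was called higher at 10.04 and 28.9 FPKM, Irf1 at 7.57 and 17.7 FPKM and Ifitm3 as given above, while Stat2, a transducer of the interferon signal, was called lower at 12.1 and 6.41 FPKM.

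Secretory transcripts of the seminal vesicle, the gland that makes most of the fluid of the ejaculate, had the highest share of called members among the 26 lists. All 8 members of the seminal vesicle and epididymis list were at least 2-fold higher in the second condition, against 4.48% of all members. The authors called 7 of them higher, against 0.808% of all members. Svs5 was at 186 FPKM in the first condition and 587 FPKM in the second, a log2 ratio of 1.66 with an implied error of 0.23. Svs4 was at 179.5 and 448 FPKM, Svs2, a clotting protein of semen, at 100.2 and 268 FPKM, and Svs6 at 61.7 and 177 FPKM. The log2 ratios of the 8 members lay between 1.25 and 1.75, a narrow range. The epididymal genes Lcn5 and Adam7 were at 0 in both conditions. In the leptotene/zygotene table the seminal vesicle genes were present and near equal, with Svs5 at 194 and 185 FPKM and Svs2 at 104 and 101 FPKM, while in the day 3 table Svs2 was listed at 0 in both conditions. The sum of the list was 600.2 and 1691 FPKM in the pachytene table, 629 and 587 FPKM in the leptotene/zygotene table and 2.57 and 1.80 FPKM in the day 3 table. The part of such secretory RNA in the other differences was not tested.

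**Figure D2:**
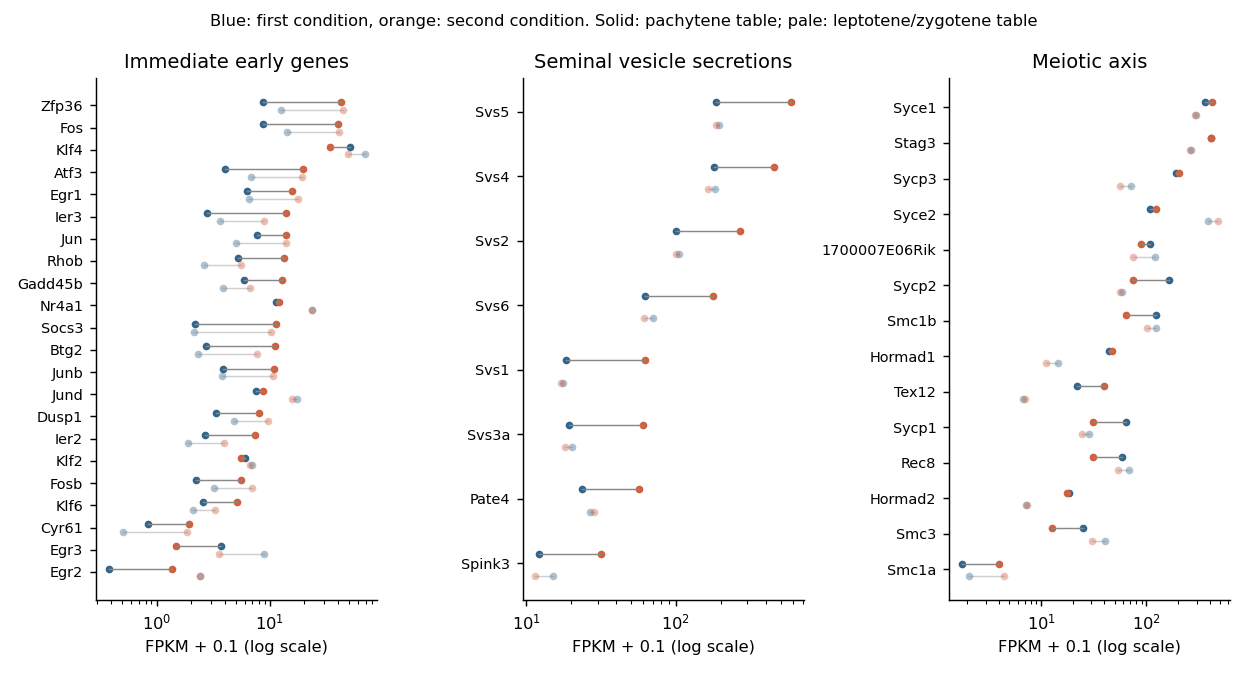
Levels in FPKM + 0.1 on a log scale for the members of 3 lists, blue for the first and orange for the second condition, with solid points for the pachytene table and pale points below them for the separately normalized leptotene/zygotene table. Seminal vesicle genes differ in the pachytene table and not in the other, immediate early genes such as Fos and Zfp36 differ in both, and Sycp2, Sycp1, Smc1b and Smc3 are lower for the second condition in the pachytene table.

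Several genes of the meiotic chromosome axis were lower in the second condition. The axis holds the loops of each chromosome and carries the synaptonemal complex. Of 14 members, 4 were called lower, against 1.37% of all members, and none higher. Sycp2, a lateral element protein, was at 164 FPKM in the first condition and 74.5 FPKM in the second, a log2 ratio of -1.14 with an implied error of 0.14. Sycp1, the transverse filament that zips the homologues, was at 63.5 and 31.2 FPKM, and the cohesin subunits Smc1b and Smc3 at 122 and 63.5 FPKM and at 25.1 and 12.5 FPKM. Rec8, the meiotic kleisin, was at 58.1 and 30.97 FPKM without a call.

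Other axis genes were near equal. Sycp3, which binds SYCP2 in the lateral element, was at 191 and 205 FPKM, Syce1 of the central element at 356 and 417 FPKM, and the cohesin subunit Stag3 at 414 and 406 FPKM. Smc1a, the X-linked mitotic counterpart of Smc1b, was at 1.67 and 3.92 FPKM without a call. The summed level of the list was 1699 and 1560 FPKM. In the leptotene/zygotene table none of the 15 axis genes was called, and Sycp2 was at 58.7 and 55.96 FPKM.

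Genes of meiotic recombination were mostly equal. Of 18 members, 1 was called lower, against 1.37% of all members, and none higher. It was Tex15, a gene needed for the repair of meiotic breaks, at 35.3 FPKM in the first condition and 12.1 FPKM in the second, a log2 ratio of -1.54 with an implied error of 0.19. Spo11, which makes the breaks, was at 57.4 and 61.4 FPKM, and Rad51c at 32.7 and 36.8 FPKM. Dmc1, the strand exchange protein of meiosis, was at 1.75 and 4.02 FPKM without a call, and Brca2 at 11.1 and 7.397 FPKM.

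The genes that signal silencing at the unpaired sex chromosomes showed no called difference. None of the 15 members passed the authors' q-value, against 2.18% of all members. No member differed 2-fold, against 4.48% of all members higher and 6.07% lower. With so few members called at all, no call among 15 does not set this list apart. Atr, the kinase that spreads the phosphorylation of H2AX over the sex body, was at 119 and 108 FPKM, and Mdc1, the adaptor that carries it along the chromosome loops, at 76.9 and 84.7 FPKM. H2afx itself was at 18.6 and 24.3 FPKM, Topbp1 at 20.1 and 23.3 FPKM, and Setdb1, a histone methyltransferase, at 26.8 and 28.3 FPKM. Brca1 was the farthest from equal at 3.98 and 2.09 FPKM, with an implied error of 0.36 on a log2 ratio of -0.90.

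The small RNA pathways were also level between the conditions. Of 9 members that make or use miRNAs, none was called, against 2.18% of all members, and none differed 2-fold. Drosha, which cuts the primary transcript, was at 14.7 and 16.4 FPKM, Dicer1 at 2.26 and 3.08 FPKM, and Tarbp2, the partner of DICER, at 285 and 313 FPKM. The piRNA pathway, which guards germ cells against transposons, had 18 members and no call. At that share of all members, no call does not set either list apart. Mael was at 1019.8 and 1205 FPKM, Tdrd6 at 618 and 548 FPKM, the germ cell helicase Ddx4 at 364 and 397 FPKM, and Piwil1 (MIWI) at 202 and 215 FPKM. All 18 log2 ratios lay between -0.17 and 0.34.

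The lists of regulators and products of the later programme had no called member, against 2.18% of all members. Outside these lists sperm genes were called on both sides. Cylc2 was lower at 181 and 64.2 FPKM, Fsip2 lower at 125 and 32.6 FPKM, and Tcte3 higher at 1721 and 2653 FPKM. These were chosen after their values were seen. Of 11 transcription regulators 1 was at least 2-fold lower, the Y-linked Zfy2. Crem, a switch of spermatid genes, was at 369 and 372 FPKM, Brdt, a testis bromodomain protein, at 219.7 and 220.1 FPKM, Tcfl5 at 237 and 283 FPKM and Mybl1, the master factor of pachytene transcription, at 55.98 and 50.4 FPKM. The 18 spermatid members had log2 ratios from -0.77 to 0.67, and their summed level was 13806 and 15632 FPKM. Acrv1 of the acrosome was at 197 and 116 FPKM, and Prm1 as given above was the farthest on the other side. Of 22 glycolytic genes none was called, and the widest difference was that of Hk2 at 3.702 and 7.84 FPKM, beside Hk1 at 924 and 905 FPKM.

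**Figure D3:**
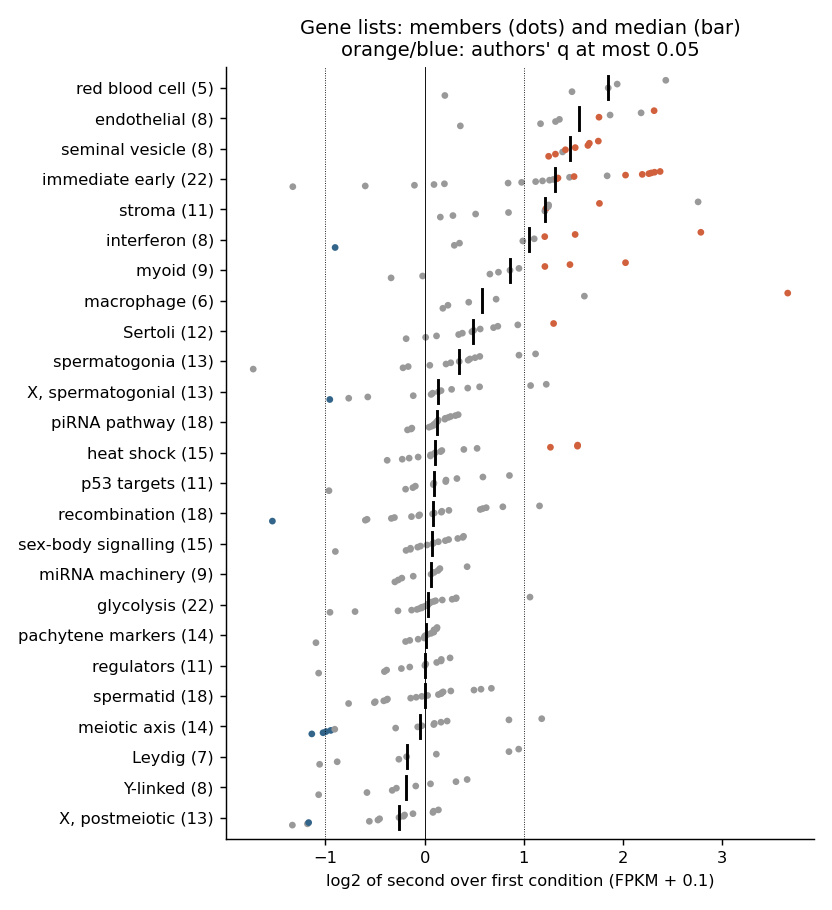
Log2 ratio of the second over the first condition (FPKM + 0.1) for the members of 25 gene lists, each a dot, with the list's number of members in brackets and its median as a black bar; orange and blue dots have an authors' q-value of at most 0.05. The lists of red blood cell, endothelial, seminal vesicle, immediate early and stroma genes have medians between 1.22 and 1.85, though 2 red cell, 6 endothelial and 6 stroma members reached 1 FPKM only in the second condition, and the lists of germ cell processes lie around 0.

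The X chromosome was low in both libraries. Its 821 members had a median of 4.41 FPKM in the first condition and 3.97 FPKM in the second, against 10.9 and 10.9 FPKM for the 15252 autosomal members. The ratio of these medians was 0.40 and 0.37 at pachytene, 0.57 and 0.57 in the leptotene/zygotene table and 0.66 and 0.61 in the day 3 table. The ratio was thus lowest in the pachytene table, in both conditions, across tables that were normalized separately.

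Between the conditions the X-linked median was slightly below the autosomal one. Their median log2 ratio was -0.04, with a 95% order-statistic interval over genes from -0.08 to 0.01, and it turned to 0.01 when the columns were scaled to the same sum. The X median minus the autosomal median was -0.07, and it was -0.07 with that scaling too. With the autosomal median held fixed, the interval of the X median ran from -0.12 to -0.02 around this value. Both intervals describe the spread over genes of 1 library a side, which are not replicates. At least 2-fold differences were found for 62 X-linked members that were higher (7.55%) and 75 that were lower (9.14%). The authors called 5 higher (0.609%) and 8 lower (0.974%), against 0.808% and 1.37% of all members.

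The median differed between level classes. Among 163 X-linked members in the class that starts at 8 FPKM the median log2 ratio was -0.23, with 13 at least 2-fold lower and 1 at least 2-fold higher. Among 250 members under 2 FPKM it was 0.14, with 50 at least 2-fold higher and 34 at least 2-fold lower. Autosomal members of the same level classes had medians of 0.04 and -0.04. With a floor of 5 FPKM in either condition the median of X-linked members was -0.19.

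Of the called X-linked genes, Bgn, a matrix proteoglycan, was at 0.599 and 4.25 FPKM, Sat1, a polyamine acetylase, at 3.65 and 9.699 FPKM, Mid1ip1 at 0.98 and 5.15 FPKM, Pls3, an actin bundler, at 1.76 and 4.11 FPKM, and Mospd2 at 0.35 and 1.36 FPKM. All 5 were low in the first condition. Of the called lower genes, Uba1, the ubiquitin-activating enzyme, was at 54.2 and 32.7 FPKM, Cylc1, a sperm head cytoskeleton protein, at 30.4 and 13.5 FPKM, Phka2 at 13.9 and 5.44 FPKM and 1 of 2 rows of the deubiquitinase Usp9x at 7.61 and 3.87 FPKM. Apart from Bgn, Cylc1 and Usp9x these were chosen after their values were seen. Of the X-linked genes named only for their distance from 0, Slc7a3 was at 1.42 and 0.18 FPKM and Renbp at 0.68 and 4.05 FPKM, neither called.

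X-linked genes of spermatids had more members below 0 than above it. Akap4, the main scaffold of the sperm fibrous sheath, was at 409 and 450.5 FPKM. Of the 13 members of the postmeiotic list 10 had a log2 ratio below 0 and 3 above it, with a median of -0.26, and Cylc1 was the 1 called member. Cypt1 was at 132 and 89.6 FPKM, Tsga8 at 126 and 92.1 FPKM and Cypt15 at 15.5 and 6.08 FPKM, without calls. The 13 X-linked members known from spermatogonia were low and mixed, with Taf7l at 20.3 and 22.7 FPKM, Rhox13 at 2.98 and 7.12 FPKM and Tex11 at 3.84 and 4.06 FPKM. Several of these genes belong to families of near-identical copies whose reads can be shared.

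The Y chromosome had 15 members, none of them called, with a median of 1.41 FPKM in the first condition and 1.36 FPKM in the second. None was at least 2-fold higher and 4 were at least 2-fold lower (26.7%, against 6.07% of all members). Of all 3070 members with a geometric mean under 2 FPKM, 591 were at least 2-fold lower, though some Y-linked members, such as Eif2s3y, lie above that level. The 4 were Zfy2, Tspy-ps, Gm16501 and Gm6026. Gm16501 and Gm6026 had identical values, just above the floor of 1 FPKM in the first condition and listed at 0 in the second. They are thus not independent, and a difference from other genes at such levels was not tested. Eif2s3y, a translation initiation factor needed by spermatogonia, was the most abundant at 32.3 and 26.5 FPKM, and Ube1y1 was at 7.396 and 6.95 FPKM. Zfy1 and Zfy2, zinc finger genes whose misexpression at pachytene is known to be lethal to the cell, were at 1.76 and 1.14 FPKM and at 2.696 and 1.23 FPKM. Both were lower in the second condition without a call, Zfy2 with a log2 ratio of -1.07 and an implied error of 0.52. Uty was at 1.41 and 1.78 FPKM and Ddx3y at 1.01 and 1.06 FPKM.

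**Figure D4:**
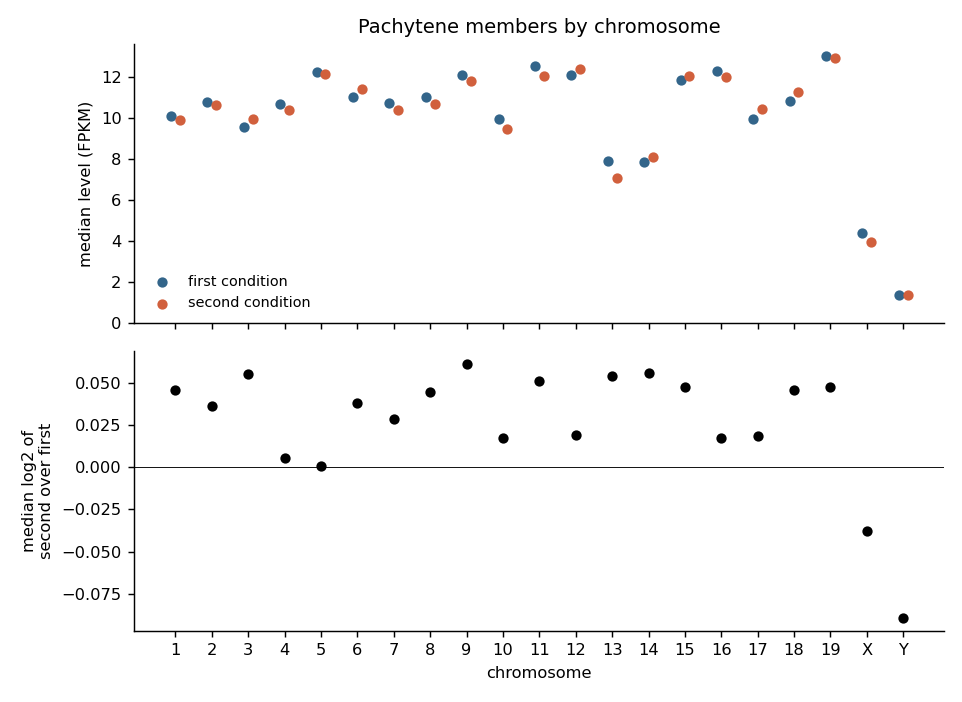
Median level of the members of each chromosome in FPKM (upper panel, blue for the first and orange for the second condition) and their median log2 ratio of the second over the first condition (lower panel). Chromosome X, at 4.41 and 3.97 FPKM, and Y, at 1.41 and 1.36 FPKM, lie below every autosome in level, and they are the only chromosomes with a median log2 ratio below 0.

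Autosomal relatives of X-linked genes were mostly far above them. In 11 of 12 pairs the autosomal gene exceeded its X-linked relative in both conditions, and 9 of the 12 X-linked genes were under 5 FPKM in both conditions. Pgk1, the phosphoglycerate kinase of most cells, was at 1.52 and 1.57 FPKM and its autosomal copy Pgk2 at 496 and 519 FPKM. The centrin gene Cetn2 was at 3.71 and 4.74 FPKM and Cetn1 at 513 and 604 FPKM, and Rpl10 at 2.39 and 3.94 FPKM beside Rpl10l at 213 and 177 FPKM. Hnrnph2 was at 9.38 and 6.61 FPKM beside its autosomal relative Hnrnph1 at 272 and 273 FPKM.

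No gene of the 12 pairs was called, against 2.18% of all members. The widest difference was that of Pdha1, a subunit of pyruvate dehydrogenase, at 0.66 and 3.103 FPKM, beside Pdha2 at 99.8 and 104 FPKM. G6pd2 was at 28.4 and 15.3 FPKM beside G6pdx at 0.57 and 0.84 FPKM. Cstf2, a polyadenylation factor, was the exception to the order, at 47.3 and 30.8 FPKM against 22.9 and 27.9 FPKM for Cstf2t. In the separately normalized day 3 table, where Ldhc was at 2.06 and 1.14 FPKM, 11 of the 12 X-linked genes exceeded their relatives in both conditions, with Pgk1 at 33.7 and 45.8 FPKM and Pgk2 at 0.08 FPKM and 0.

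**Figure D5:**
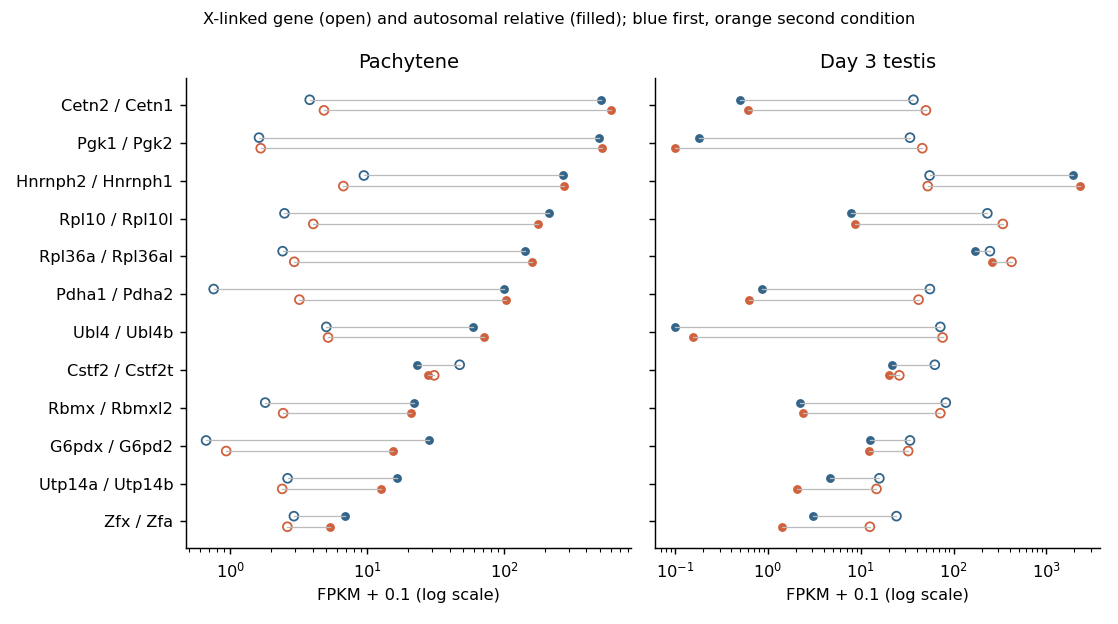
Levels in FPKM + 0.1 on a log scale of 12 X-linked genes (open circles) and their autosomal relatives (filled circles) in the pachytene table and the separately normalized day 3 table, blue for the first and orange for the second condition. In the pachytene panel the filled circles lie to the right in 11 pairs, and in the day 3 panel the open circles do in 11 pairs.

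Called genes were a larger share of members near Ago4 and in the MHC than of all members, which was not tested, and some other windows had larger shares. Of 238 windows of 10 Mb with at least 20 members, the one from 120 to 130 Mb on chromosome 4 ranked 22nd by its called share, at 5.67%. The one from 30 to 40 Mb on chromosome 17 ranked 11th, at 6.83%. The highest share, 13.0%, was that of a window of 23 members with 1 called higher and 2 lower. By number, the chromosome 4 window had 7 called higher and 1 lower among 141 members, and the chromosome 17 window 7 and 4 among 161. No window had more called higher. Within 5 Mb on either side of Ago4, 8 of 131 members, Ago4 among them, were called higher and 1 lower, together 6.87%, against 2.18% of all members. Of all members 0.808% were called higher and 1.37% lower. Beside Ago4 they included Ndufs5, of respiratory complex I, at 8.86 and 51.8 FPKM, Hdac1, a histone deacetylase, at 23.3 and 56.6 FPKM, and Phc2, a Polycomb subunit, which was lower at 38.3 and 17.5 FPKM. These 3 were chosen after their values were seen. In the leptotene/zygotene table Ndufs5 was at 4.55 and 22.7 FPKM and Hdac1 at 16.4 and 36.8 FPKM. On chromosome 17 between 33 and 37 Mb, where the MHC lies, 7 of 123 members were called higher and 3 lower, together 8.13%. These included H2-Ab1, Rps18, Hspa1a, Hspa1b and the complement gene C4b, the last at 6.49 and 0.78 FPKM.

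Part of the differences stood in the leptotene/zygotene table as well. That table had 16117 members by the same rule, of which 6.36% were at least 2-fold higher and 7.36% at least 2-fold lower in its own second condition, and the authors called 149 higher (0.924%) and 258 lower (1.6%). Of the 130 genes called higher at pachytene 40 were called higher there, a share of 30.8% of the pachytene genes and 26.8% of the leptotene/zygotene genes. Of the 220 called lower 71 were called lower, 32.3% and 27.5% of each list. None was called in opposite directions. The tables share no library, and no source gives whether the order of conditions is the same in both.

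Several genes with wide differences stood at similar levels in that table. H2-Ab1 was at 6.905 and 41.5 FPKM, Rps18 at 113 and 8.48 FPKM (in the day 3 table at 260.0 and 569.7 FPKM), and Rpl29 at 6.47 and 40.2 FPKM. Of the immediate early genes 9 were called higher and 1 lower, with Fos at 13.9 and 40.4 FPKM and Zfp36 at 12.4 and 43.8 FPKM. Eif2c4, the row of Ago4, was at 1.67 and 3.26 FPKM and was called higher. The seminal vesicle genes, the axis genes, the 7SK rows and Lars2, the mitochondrial leucyl-tRNA synthetase, at 181 and 23.3 FPKM in the pachytene table and 362 and 453 FPKM in the other, were nearer to equal there or on the other side of 0. Lars2 was chosen after its values were seen. The difference between the tables was not tested for any of them.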

How the data were processed

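The mRNA of pachytene spermatocytes was sequenced from 1 Ago4+/+ and 1 Ago4-/- library, with a TruSeq kit. No strand-keeping step is stated in the labels' protocols, and reads of genes that overlap on opposite strands may be mixed. The submitters' processing notes name Cufflinks 1.1.0 with Cuffdiff and TopHat 1.3.0 with Bowtie 0.12.7. The authors deposited FPKM for each condition and gene, per the file headers. The q-values, adjusted from Cuffdiff p-values, were deposited by the authors and copied. The test statistic, a score made by the authors from the same levels, gave the implied errors, per the file headers.

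Log2 ratios used a pseudocount of 0.1 FPKM and a floor of 1 FPKM, computed with Python 3.11.15 and pandas 2.3.3 and checked on simulated data. No test was run, because each side had 1 library. The leptotene/zygotene and day 3 tables were read for levels. The pre-meiotic table, the small RNA libraries and day 8 testes were not analysed here. Current symbols matched 31840 of 36806 IDs. Of the members, 6638 share a locus with another row. Named genes are Ago4, the 8 highest and 8 lowest called ratios, the 5 highest and 5 lowest X-linked ratios and genes listed at 0 in 1 condition, these without predicted (Gm, Rik) or clone names, the 10 highest levels, Y-linked members, the farthest 4 and most abundant 2 of each list and all pairs. Further list members are named as examples. Members and lists were chosen with earlier results of these data known. Alternatives changed the pseudocount, the floor, the scaling, the status and the treatment of shared loci.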

Additional observations from a re-analysis of the deposited data

How the results depend on the processing

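With 1 library a side no library could be left out, and depth is unknown. No paired analysis was possible because each condition has 1 library and the columns carry no replicate number. At least 2-fold higher and lower counts were 334 and 597 with a pseudocount of 1 FPKM, 202 and 423 with a floor of 5 FPKM in either condition, 272 and 395 with a floor of 1 FPKM in both, 1487 and 2487 with no floor, and 400 and 544 over loci with no other row. The higher share of these genes was 42.4% in the main setting and 32.3% with the floor of 5 FPKM. Over loci with no other row 82 genes were called higher and 120 lower. The median log2 ratio of all members was 0.0061 with no floor, 0.0124 with upper quartiles made equal, 0.0815 with equal sums and 0.0453 over loci with no other row. For X-linked members it was -0.19 with the floor of 5 FPKM, and -0.22 less the autosomal median. The cause of these shifts was not tested, beside the fewer or more genes that each floor leaves. Of the other values over all members, 52 moved by less than their limits. Over the lists 231 values did and 1 moved, the Argonaute median, which rested on 1 member with the floor of 5 FPKM. Of the ratios of named genes 1645 stayed within their limits and 816 did not, but only the pseudocount and the scaling can change such a ratio. Genes without an implied error had a limit of 0. For that reason 110 ratios count as moved with every status, where no ratio can change. With a pseudocount of 1 FPKM 127 ratios moved and 187 did not. No called named gene changed sign, but a pseudocount cannot reverse a sign and the scaling factors were only 0.986 and 1.03.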

Other observations

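Housekeeping protein complexes were examined after their values were seen. Of 81 cytosolic ribosomal protein genes, 76 had a log2 ratio above 0, with a median of 0.31, and their summed level was 6418 FPKM in the first condition and 7804 FPKM in the second. Rpl29 and Rpl30 were called higher and Rps18 lower. Of 78 subunits of the respiratory complexes, 72 were above 0, with a median of 0.20, and Ndufs5 was the 1 called gene. Among 37 proteasome subunits the median was 0.11, and the called gene was Psma8, the subunit of the germ cell proteasome, at 167 and 374 FPKM, and at 29.7 and 87.1 FPKM in the leptotene/zygotene table. The 42 replication-dependent histone genes had a median of 0.22 and no call.

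A cluster of near-identical genes on chromosome 17 was called higher, also noted after the values were seen. Tcte3, a dynein light chain gene of sperm, was at 1721 and 2653 FPKM, its neighbour Gm3448 at 1883 and 2890 FPKM and Gm3417 at 2296 and 3773 FPKM. Reads of such copies can be shared between them, so the 3 values are not independent. Called lower genes lay in longer loci, with a median span of 48351 bp, than called higher genes, at 17102 bp, and all members, at 26416 bp.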
